A study of Mus musculus with 48 samples.

Results

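The 31 genes described here encode the cholesterol module of the cell. They comprise 18 enzymes of cholesterol synthesis, 6 genes of sterol sensing and transport, the 2 liver X receptors, and 5 genes that the liver X receptors induce. They were chosen by name from known roles, with earlier results of these data known, and are 31 of the 55487 genes in each of the study's count tables. All 31 passed the filter on low counts in every comparison.

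The study sequenced polyA RNA from myeloid cells sorted from digested lymph nodes of mice. The 48 libraries fall into 16 groups of 3: medullary sinus macrophages (MSM), subcapsular sinus macrophages (SSM), migratory dendritic cells (mDC) and resident dendritic cells (rDC), each from a lymph node (LN) or a tumor-draining lymph node (TDLN), after phosphate-buffered saline (PBS) or cisplatin (CIS), a DNA-crosslinking drug. All mice were wild type, so each group is named by its cell type, node and treatment alone. The dose and time of cisplatin, the ages of the mice, the number of mice in a library and the gates of the sort are not given in the sources used here. Whether replicate libraries are from different mice is not stated, so the p-values measure only the spread between these libraries.

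Cells make cholesterol from acetyl-CoA in a chain of enzymes whose genes are switched on by the transcription factor SREBP-2, encoded by Srebf2. When sterols in the endoplasmic reticulum run low, the escort protein Scap carries SREBP-2 to the Golgi for cleavage, and when sterols are plentiful the Insig proteins hold the Scap complex back. Oxidised sterols instead activate the liver X receptors (LXR), which raise genes that export cholesterol, such as Abca1, Abcg1 and Apoe, and Mylip, a ligase that marks lipoprotein receptors for breakdown. Macrophages take up large amounts of lipid from dying cells, and their LXR genes are among the best studied parts of this circuit.

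The promoters of 4 members are shown because their genes carried the main differences below: Hmgcs1 and Idi1, early enzymes of the chain, and the regulators Srebf2 and Insig1. Each line gives the 250 bases before the gene's start on the + strand of GRCm38.p6, 5′ to 3′, from RefSeq. Capitals mark a CCAAT box, which reads ATTGG when it lies on the other strand, and in Hmgcs1 also the core sterol regulatory element CACCCCAC.
Hmgcs1, chr13:119690101-119690350: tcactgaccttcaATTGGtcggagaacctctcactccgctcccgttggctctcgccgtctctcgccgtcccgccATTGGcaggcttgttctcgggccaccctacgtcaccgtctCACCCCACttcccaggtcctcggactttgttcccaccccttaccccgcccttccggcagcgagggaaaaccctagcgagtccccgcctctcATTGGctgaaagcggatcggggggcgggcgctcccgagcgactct
Idi1, chr13:8885356-8885605: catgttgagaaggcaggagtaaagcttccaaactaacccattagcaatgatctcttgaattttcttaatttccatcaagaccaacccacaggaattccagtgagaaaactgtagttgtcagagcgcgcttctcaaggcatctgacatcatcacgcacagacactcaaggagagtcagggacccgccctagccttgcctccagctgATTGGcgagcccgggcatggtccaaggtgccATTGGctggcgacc
Srebf2, chr15:82147019-82147268: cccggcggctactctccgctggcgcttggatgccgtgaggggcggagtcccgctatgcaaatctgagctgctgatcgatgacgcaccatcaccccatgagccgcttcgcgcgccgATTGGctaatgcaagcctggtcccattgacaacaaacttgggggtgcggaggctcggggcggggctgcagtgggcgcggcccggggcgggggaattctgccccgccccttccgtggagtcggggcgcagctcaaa
Insig1, chr5:28071162-28071411: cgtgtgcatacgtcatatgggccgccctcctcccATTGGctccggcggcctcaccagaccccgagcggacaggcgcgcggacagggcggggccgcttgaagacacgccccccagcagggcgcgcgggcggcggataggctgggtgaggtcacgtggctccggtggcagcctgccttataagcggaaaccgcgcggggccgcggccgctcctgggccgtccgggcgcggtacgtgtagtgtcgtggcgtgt

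Of the 31 members, 26 matched a promoter window reaching from 250 bases before to 50 bases after the start. Fdps, Fdft1, Sqle, Stard4 and Abcg1 were not matched. On either strand, CCAAT stood in 20 of the 26 matched members (76.9%), against 41.1% of all 27025 genes with a window. The exact letters CACCCCAC stood in 2 of the 26, Hmgcs1 at -136 to -129 and Acat2 at -181 to -174 from the start, against 3.3% of all genes. The exact LXR motif (AGGTCA repeated after 4 bases) stood in 0.0152% of all windows and in 0 members. These are matches of letters in a short window and say nothing of a factor's binding.

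Levels are given as CPM (counts scaled to a common library total with TMM factors), and a gene is called higher or lower where the adjusted p of the quasi-likelihood test of edgeR (Benjamini-Hochberg, over all genes tested) was under 0.05. The 24 macrophage libraries held 6.46 to 10.43 M counts. Of the dendritic cell libraries, the 6 of mDC TDLN PBS and rDC LN PBS held 10.73 to 15.48 M and the other 18 held 2.0 to 3.84 M, so comparisons with those 2 groups set deep against shallow libraries. Bulk RNA cannot tell fewer cells of a type from less RNA per cell. Statements below that groups do not overlap or are separated describe only the genes named. The share of all genes without overlap was not computed, so such a statement adds nothing to a call. Of the dendritic cell markers, Ccr7 separated the labels (10910 to 14860 CPM in mDC, 648.5 to 1177 in rDC), and Xcr1 separated them the other way (6.04 to 22.2 in mDC, 110 to 220 in rDC). The whole list of 6 resident markers did not: it summed to 1267 to 1479 CPM in mDC and 659 to 1088 in rDC, with Flt3 at 692 to 818 in mDC and 290 to 490 in rDC. In the macrophages, 4 libraries went against their labels: replicate 2 of LN PBS in both MSM and SSM, and with cisplatin in the TDLN replicate 1 of MSM and replicate 3 of SSM. Across genes their correlation with their own label's other libraries was at most 0.747 and with the other label at least 0.989. They are called the crossed libraries, and comparisons of groups that hold one are given with and without them, the value without them second.

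By the balance between synthesis and efflux, the migratory dendritic cells ranked above every other group, while resident dendritic cells and macrophages overlapped. The 5 genes that LXR induces (Abca1, Abcg1, Apoe, Lpcat3 and Mylip) are called the efflux genes for short. Of these, Lpcat3 remodels phospholipids and Mylip marks lipoprotein receptors for breakdown, so neither is itself an exporter of cholesterol. Per library, the mean log2(CPM + 0.5) over the 5 efflux genes was taken from that over the 18 enzymes. CPM is not per length, so the order of groups can be read from this difference and its size cannot. The 4 mDC groups were highest: LN PBS at 0.014 ± 0.08 (SD, n = 3), TDLN PBS at -0.115 ± 0.027, TDLN CIS at -0.129 ± 0.043 and LN CIS at -0.559 ± 0.08. The ranges of TDLN PBS and TDLN CIS in mDC do not stand apart by more than their SD, whereas LN CIS lay below the other 3.

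The rDC groups came next in the tumor-draining node, with TDLN PBS at -1.645 ± 0.018 and TDLN CIS at -1.86 ± 0.143. In the lymph node the rDC lay lower, at -2.291 ± 0.065 with PBS and -2.711 ± 0.083 with cisplatin, within the range of the macrophages. The highest macrophage group was MSM LN CIS at -2.125 ± 0.037 and the lowest SSM LN PBS at -3.229 ± 0.371. Neighbours among the lower groups overlapped: rDC LN CIS, SSM TDLN PBS (-2.713 ± 0.077) and SSM TDLN CIS (-2.794 ± 0.37) differed by less than their SD. Without the crossed libraries (n = 2 in those groups) SSM LN PBS was at -3.443, SSM TDLN CIS at -3.006, MSM LN PBS at -2.71 and MSM TDLN CIS at -2.396. The 2 tables were scaled separately, so the enzyme and efflux means set across macrophages and dendritic cells rest on that scaling. The difference of the means is taken within a library and hardly depends on it. Without TMM factors it was again 0.014 in mDC LN PBS, -2.961 in MSM LN PBS and -3.229 in SSM LN PBS.

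The enzymes and the efflux genes each contributed to this order. The enzyme mean ranged from 5.693 (LN CIS) to 6.178 in mDC, from 4.235 (LN CIS) to 4.835 in rDC, from 4.2 to 4.735 in MSM and from 4.447 to 4.876 in SSM. The efflux mean was 6.019 to 6.292 in mDC, 6.479 to 6.946 in rDC, 6.326 (LN CIS) to 7.774 in MSM and 7.164 to 7.676 in SSM. Apoe, which carries cholesterol out of the cell in lipoproteins, was the most abundant member per length in all 4 cell types: its mean TPM was 272.5 in mDC, 932.9 in rDC, 6183 in MSM and 7159 in SSM, the macrophage values being deposited without decimals. On the same per-length scale the leading enzyme was Idi1 in mDC (157.8 TPM), Fdps in rDC (72.58 TPM) and Ebp in MSM (74.58) and SSM (79.83).

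**Figure D1:**
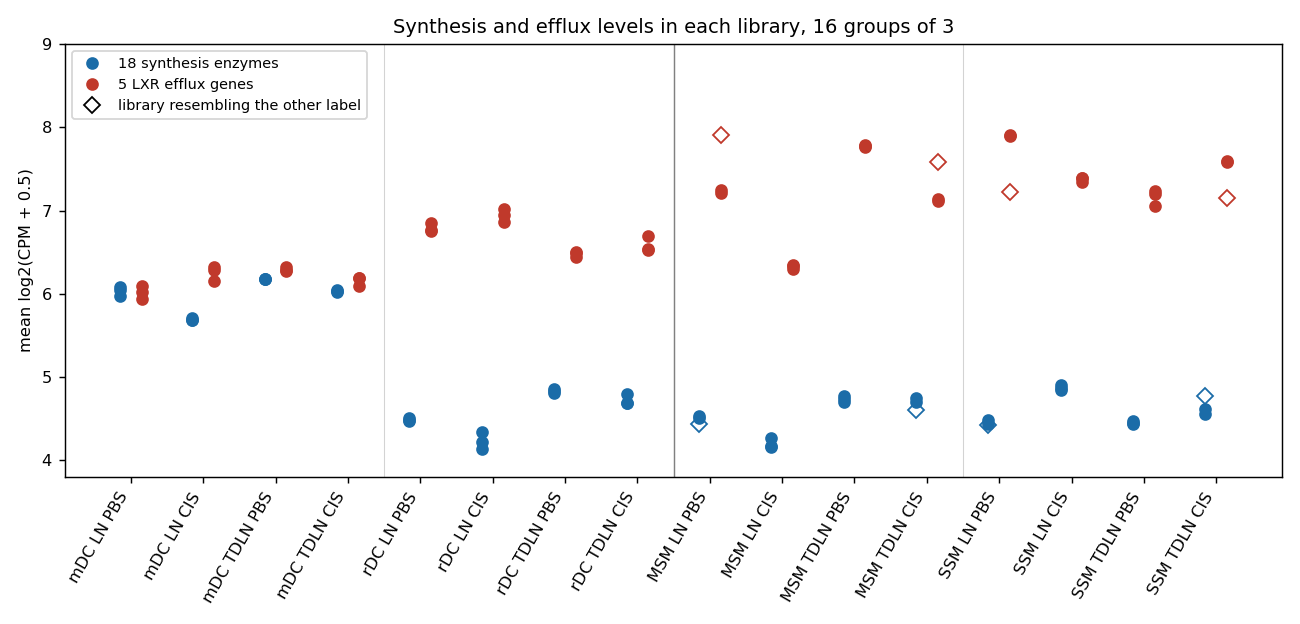
Mean log2(CPM + 0.5) of the 18 enzymes (blue) and the 5 efflux genes (red) in each of the 48 libraries, by group, with open diamonds for the 4 crossed libraries. The mDC groups have enzyme means of 5.693 to 6.178, above every rDC, MSM and SSM group, and macrophage efflux means reach 7.774.

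Migratory and resident dendritic cells differed across most of the module. Averaged over the 4 conditions, 22 of 31 members were higher and 8 lower in mDC, where 35.6% of all 14548 genes tested were higher and 38.9% lower. Of the enzymes, 16 of 18 were higher and 2 lower, with a median log2 difference of 1.44 against -0.058 for all genes. Sensing genes were split 3 and 3, and of the efflux genes 2 were higher and 3 lower. Thinning the deep libraries to 3 M counts gave 22 higher and 8 lower as well.

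Idi1, which isomerises the 5-carbon building block of sterols, showed the widest gap among the enzymes. It stood at 249.6 to 434 CPM in the 12 mDC libraries and 16.2 to 32.9 in the 12 rDC libraries, a log2 difference of 3.85 (SE 0.08, edgeR adjusted p = 3.86e-27). Hmgcs1, which makes HMG-CoA, ran from 156 to 330 CPM in mDC and 29.1 to 75.7 in rDC (2.41, SE 0.05, edgeR adjusted p = 5.42e-26). Sqle, the squalene epoxidase, ran from 67.4 to 129 and from 13.4 to 46.5 CPM (1.76, SE 0.09, edgeR adjusted p = 1.95e-17). For these 3 enzymes no mDC library overlapped an rDC library. The lanosterol demethylase Cyp51 (2.35), the squalene synthase Fdft1 (2.26), the mevalonate decarboxylase Mvd (2.03) and Hsd17b7 (1.98) followed on the log2 scale. Dhcr7, an enzyme of the last steps, went the other way at -0.86, as did the sterol isomerase Ebp at -0.27.

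Among the sensing genes Stard4, a cytosolic sterol carrier, was higher in mDC by 1.06, Insig1 by 0.82 (SE 0.06, edgeR adjusted p = 6.85e-14) and Srebf2 by 0.43 on the log2 scale. Scap was lower by 1.04, with log2 differences of -0.40 for Srebf1 and -0.35 for Insig2. The receptor Nr1h2 (LXR beta) was slightly higher (0.30), and Nr1h3 (LXR alpha) was not called (0.15, edgeR adjusted p = 0.19).

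The 5 efflux genes did not move as a block. Abca1, which loads cholesterol onto lipid-poor apolipoproteins, stood at 15.1 to 26.8 CPM in mDC and 65.2 to 161 in rDC (-2.30, SE 0.06, edgeR adjusted p = 1.42e-23). Apoe stood at 159.6 to 266 CPM in mDC and 437 to 804 in rDC (-1.47, SE 0.06, edgeR adjusted p = 2.69e-19). Abcg1, which exports cholesterol to mature lipoproteins, was opposite to both, at 293.5 to 456 CPM in mDC and 81.3 to 102 in rDC (1.99, SE 0.03, edgeR adjusted p = 6.86e-29). Lpcat3, which remodels phospholipids, was lower (-1.03) and Mylip marginally higher (0.17). Per length, Abca1 had 2.906 TPM in mDC against 17.9 in rDC, and Idi1 157.8 against 13.57. Markers of other cells were higher in the rDC libraries: macrophage markers summed to 1995 to 3068 CPM against 656 to 1172 in mDC, B cell markers to 1251 to 2733 against 122 to 339, and T cell markers to 281 to 768 against 25.3 to 75.9. Their part in the result was not tested.

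Other lipid genes did not share the rise of the sterol enzymes. Of 9 tested genes of fatty acid synthesis, 0 were higher and 7 lower in mDC, with Scd1, the stearoyl-CoA desaturase, at -3.17. Of 11 tested genes of uptake, storage and lysosomal handling, 1 was higher and 9 lower. The scavenger receptors Scarb1 (-3.01) and Cd36 (-2.60) were lower in mDC and Npc2, a lysosomal sterol carrier, was higher (1.49).

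**Figure D2:**
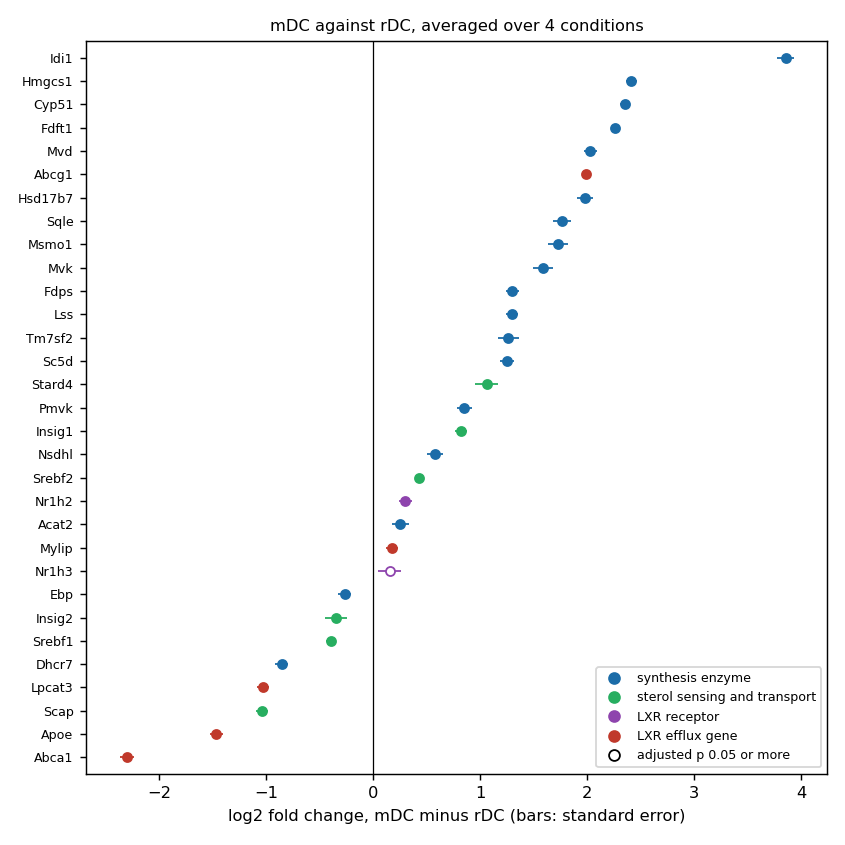
Log2 difference of mDC minus rDC (x axis, averaged over 4 conditions, bars the standard error) for the 31 members, coloured by role, with open points for members that were not called. Enzymes lie mostly to the right, led by Idi1 at 3.85, while Abca1 (-2.30) and Apoe (-1.47) lie to the left and Abcg1 (1.99) to the right.

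Cisplatin was followed by lower sterol synthesis genes in the mDC of the lymph node. Of the 31 members 12 were lower and 2 higher than with PBS, where 4.82% of all 12519 genes tested were lower and 6.15% higher. The 12 were 9 enzymes, Insig1, Srebf2 and Stard4, and the 2 were the efflux genes Apoe and Lpcat3. The enzymes' median log2 change was -0.40 against -0.009 for all genes. Under the other settings that kept all 3 libraries of each group, 10 to 12 members were lower and 2 higher, and leaving out 1 library at a time left 12 to 15 called in all.

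Hmgcs1 was at 239, 286 and 277 CPM with PBS and 143, 158 and 151 with cisplatin (log2 change -0.82, SE 0.07, edgeR adjusted p = 3.23e-08). Fdps, the farnesyl diphosphate synthase, was at 154, 119 and 137 with PBS and 78.5, 71.4 and 91.4 with cisplatin (-0.79, SE 0.10, edgeR adjusted p = 2.75e-06). Sqle was at 88.4, 119 and 89.5 with PBS and 71.8, 61.7 and 72.9 with cisplatin (-0.51, SE 0.11, edgeR adjusted p = 0.00228). In each of the 3 genes every cisplatin library lay under every PBS library. The squalene synthase Fdft1 went from 124, 113 and 113.5 to 78.2, 75.6 and 80.3 CPM (-0.59, SE 0.08, edgeR adjusted p = 1.14e-05). The lanosterol synthase Lss was at 69.4, 57.8 and 83.1 with PBS and 49, 38.7 and 49.8 with cisplatin (edgeR adjusted p = 0.000988).

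Among the other called enzymes Hsd17b7 changed by -0.56, Mvd by -0.51 and the phosphomevalonate kinase Pmvk by -0.43 (edgeR adjusted p = 0.0263). Idi1 was called (-0.33, edgeR adjusted p = 0.0457) although its groups overlapped, at 279, 399 and 292 CPM with PBS and 256, 279.6 and 227 with cisplatin. Enzymes after lanosterol included several small values that were not called: Cyp51 -0.01, Msmo1 -0.14 and Ebp 0.27.

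Among the sensing genes 3 of 6 were lower as well. Insig1 was at 70.9, 78.9 and 72 CPM with PBS and 35.6, 37.8 and 41.6 with cisplatin (-0.95, SE 0.10, edgeR adjusted p = 2.9e-07). Srebf2 itself was at 431, 449.7 and 440.2 with PBS and 316.5, 276 and 323 with cisplatin (-0.53, SE 0.06, edgeR adjusted p = 1.24e-06). Stard4 was at 18.6, 32.5 and 22.7 with PBS and 12.8, 11.3 and 8.64 with cisplatin (edgeR adjusted p = 0.00119). All 3 were separated by group.

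Of the 5 efflux genes 2 were called, both higher. Apoe was at 172.5, 146.5 and 150.3 CPM with PBS and 188.5, 203 and 242 with cisplatin (0.42, SE 0.09, edgeR adjusted p = 0.00369). Lpcat3 was at 20.2, 17.5 and 16.3 with PBS and 26.2, 28.4 and 28.4 with cisplatin (0.61, SE 0.15, edgeR adjusted p = 0.00722). Both were separated by group. Abca1 was at 18.2, 20.6 and 14.1 with PBS and 14.2, 20.02 and 16.9 with cisplatin, which overlap (-0.05, edgeR adjusted p = 0.915). Abcg1 was at 314, 347 and 343.5 with PBS and 322, 325 and 339 with cisplatin and was not called. Mylip (0.02) and the receptors Nr1h2 (0.02) and Nr1h3 (0.13) were not called either.

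Genes outside the module were mixed. In lipid uptake and handling 5 of 10 tested genes were higher and 1 lower, with Cd36 at 1.68, the lipoprotein receptor Lrp1 at 0.84 and the lysosomal lipase Lipa at 0.72. In fatty acid synthesis 1 of 8 was higher (Scd1, 1.04) and 3 lower (Fads2, -1.01, with Fads1 and Scd2). Marker sums of other cells moved too: macrophage markers were at 693 to 753 CPM with PBS and 1109 to 1172 with cisplatin, B cell markers at 122 to 135 and 254 to 287, and neutrophil markers at 0.915 to 2.03 and 13.1 to 19. Migratory dendritic cell markers were at 30780 to 31630 with PBS and 27320 to 29930 with cisplatin. What part these markers have in the result was not tested.

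**Figure D3:**
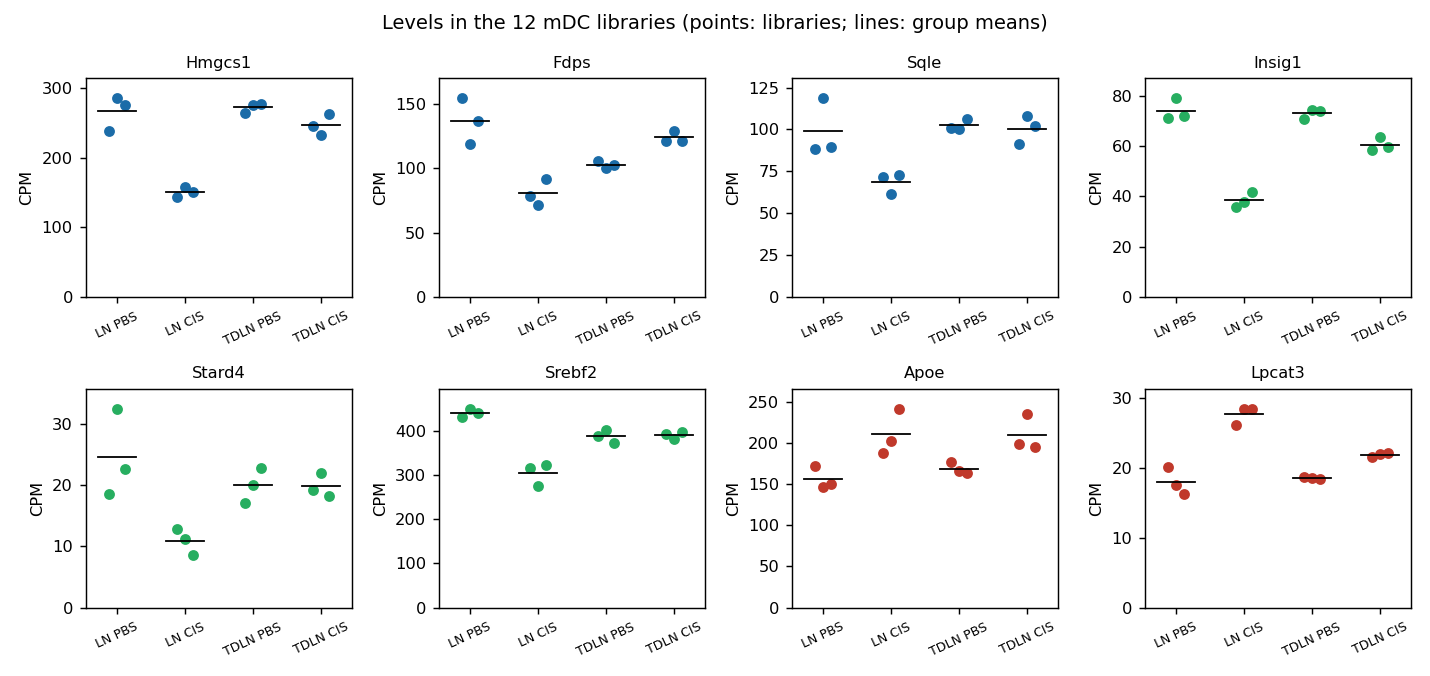
CPM of 8 members in the 12 mDC libraries (points) with group means (lines). Hmgcs1, Fdps, Sqle, Insig1, Stard4 and Srebf2 are lowest in all 3 LN CIS libraries, and Apoe and Lpcat3 are higher in LN CIS than in LN PBS.

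In the tumor-draining node the same comparison in mDC gave 4 members higher and 5 lower, where 14.1% of genes were higher and 13.2% lower. Enzymes were split 3 and 3. Insig1 was again lower, at 70.9, 74.4 and 74 CPM with PBS and 58.4, 63.5 and 59.7 with cisplatin (-0.27, SE 0.08, edgeR adjusted p = 0.0106). Fdps was higher here, at 105, 100.4 and 102 with PBS and 121.5, 129 and 121.4 with cisplatin (0.27, SE 0.08, edgeR adjusted p = 0.0124). Hmgcs1 (-0.14, edgeR adjusted p = 0.101) and Sqle (-0.03, edgeR adjusted p = 0.833) were not called.

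The efflux gene Abcg1 was lower in that node, at 375, 383 and 375.5 CPM with PBS and 302, 271.5 and 288 with cisplatin (-0.40, SE 0.05, edgeR adjusted p = 9.85e-06). Apoe was higher, at 178, 166 and 163.5 with PBS and 199, 235.5 and 196 with cisplatin (0.32, SE 0.08, edgeR adjusted p = 0.00485). Abca1 (0.03, edgeR adjusted p = 0.896) and Lpcat3 (0.24) were not called. The late enzymes Msmo1 (-0.35) and Sc5d (-0.38) were lower, as was Nsdhl, at 23.5, 26.6 and 24.6 CPM with PBS and 16.2, 16.5 and 19 with cisplatin. Mvk (0.41, edgeR adjusted p = 0.0401) and Mvd (0.25) were higher.

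These counts changed with the low-count filter and not with RLE size factors, which gave 4 higher and 5 lower. The PBS libraries are the deep ones, and without the low-count filter the median of all genes moved to 0.25 and 0 members were higher and 14 lower, with Fdps at -0.003 and Apoe at 0.04. Abcg1, Nsdhl, Sc5d, Msmo1 and Insig1 were lower with and without the filter. With the deep libraries thinned 3 members were higher and 4 lower. B cell markers summed to 212 to 229 CPM with PBS and 317 to 339 with cisplatin, and migratory dendritic cell markers to 29520 to 30630 and 25400 to 27220, which was not tested as a part of the result.

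The cisplatin change differed between the nodes for 13 members in mDC by the interaction term, 12 with a more positive change in the TDLN and 1 with a more negative one, where 8.43% and 7.17% of genes were so called. The 12 were 9 enzymes, Insig1, Srebf2 and Stard4. The difference was 1.06 for Fdps (SE 0.12, edgeR adjusted p = 2.61e-06), 0.68 for Hmgcs1 (SE 0.10, edgeR adjusted p = 3.34e-05), 0.68 for Insig1 (SE 0.13, edgeR adjusted p = 0.000683) and 0.48 for Sqle (SE 0.14, edgeR adjusted p = 0.02). Stard4 (1.10), Mvk (0.94), Mvd (0.76) and Lss (0.71) were among the others. Abcg1 was the 1 with a more negative change (-0.37, SE 0.08, edgeR adjusted p = 0.00256), and Apoe (-0.10) and Abca1 (0.08) were not called. Without the filter the median of all genes moved to 0.311, and 4 members had a more positive and 8 a more negative change: Fdps (0.73), Stard4 (0.77), Mvd (0.43) and Hmgcs1 (0.36) were the positive calls.

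With PBS alone, 9 of the 31 members differed between mDC of the TDLN and the LN: 4 were higher and 5 lower in the TDLN, where 14.8% of genes were higher and 14.3% lower. Msmo1 was higher, at 93.7, 90.4 and 94.2 CPM in the TDLN and 55.4, 73.8 and 72.8 in the LN (0.47), as were Sc5d (0.35), Cyp51 and Abcg1 (0.18). Mvk was lower, at 15.5, 14.6 and 16.7 in the TDLN and 26.4, 23.2 and 20.1 in the LN (-0.58), as were Fdps (-0.43), Mvd (-0.42), Pmvk (-0.31) and Srebf2 (-0.18). Insig1 (-0.01), Sqle (0.07), Apoe (0.10) and Abca1 (0.20) were not called. RLE size factors again gave 4 higher and 5 lower, but without the filter the median of all genes moved to -0.327, and 21 members were higher and 0 lower. Without mDC LN PBS 1 the members called were 5, the fewest over the libraries left out.

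**Figure D4:**
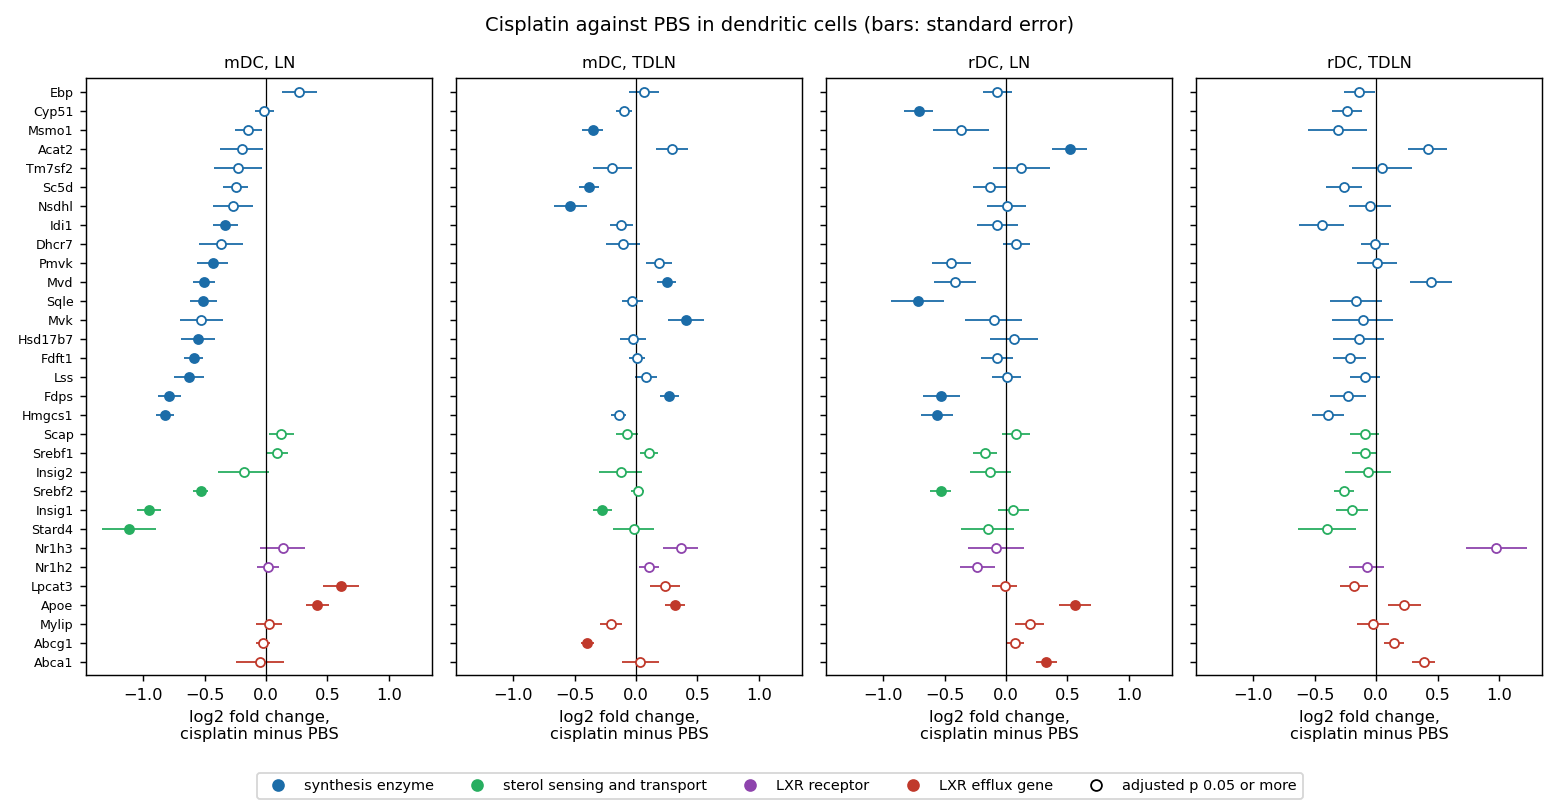
Log2 change with cisplatin (x axis, bars the standard error) of the 31 members in mDC and rDC of each node, coloured by role, with open points for members that were not called. The mDC LN panel has 12 called members left of 0 and 2 right of it, and the rDC TDLN panel has 0 called members.

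In the resident dendritic cells of the lymph node, whose change was not tested against that of the mDC, 5 members were lower and 3 higher with cisplatin, where 7.17% of all 14023 genes tested were lower and 10.7% higher. Hmgcs1 was at 53.4, 51.9 and 53 CPM with PBS and 39.1, 36.1 and 32.4 with cisplatin (-0.56, SE 0.13, edgeR adjusted p = 0.00783). Cyp51 was at 69.2, 69 and 65.9 with PBS and 41.2, 40.02 and 43.2 with cisplatin (-0.71, SE 0.12, edgeR adjusted p = 0.000581). Srebf2 was at 375, 384 and 381 with PBS and 271, 255 and 263 with cisplatin (-0.53, SE 0.08, edgeR adjusted p = 0.000403). The groups did not overlap in any of the 3.

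Sqle was at 35.4, 32.7 and 31.2 with PBS and 15.3, 16.2 and 28.3 with cisplatin, so that LN CIS 3 stood near the PBS level (-0.72, SE 0.21, edgeR adjusted p = 0.0278). Fdps was the last of the 5 (-0.53, edgeR adjusted p = 0.0219). Insig1 was not called (0.06, edgeR adjusted p = 0.807). The higher members were Apoe, at 576, 574 and 597 CPM with PBS and 912, 808 and 851 with cisplatin (0.56, SE 0.13, edgeR adjusted p = 0.0076), Abca1, at 134, 146 and 126 with PBS and 156, 172 and 179.5 with cisplatin (0.33, SE 0.09, edgeR adjusted p = 0.0143), and Acat2 (0.52), a thiolase whose reads may be shared with its near copy Acat3.

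The PBS group here is the deep one. Without the low-count filter the median of all genes moved to 0.411, and 0 members were higher and 12 lower, with Apoe at 0.26 and Abca1 at 0.03. With the deep libraries thinned 1 was higher and 4 lower. Leaving out LN CIS 2, LN PBS 1 or LN PBS 3 left 5 called. The list of resident markers, whose sum did not separate rDC from mDC, was at 1088 CPM in each PBS library and 659 to 684 with cisplatin, and macrophage markers at 2924 to 3068 and 2265 to 2372. Their part in the result was not tested.

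In the rDC of the tumor-draining node 0 members were called by edgeR with cisplatin, where 0.399% of genes were higher and 0.613% lower. At an unadjusted p under 0.05 there were 7 members, and DESeq2 also called 0. Srebf2 was at 413.8, 414.2 and 421 CPM with PBS and 303, 394 and 345 with cisplatin, with no overlap (-0.26, SE 0.08, edgeR adjusted p = 0.225). Abca1 was at 75.3, 78.7 and 72.8 with PBS and 107, 94.4 and 95 with cisplatin (0.39, edgeR adjusted p = 0.0769). Nr1h3 was at 14.1, 8.7 and 16.1 with PBS and 18.5, 37.4 and 21 with cisplatin (0.98, edgeR adjusted p = 0.0804). Hmgcs1 (-0.39), Sqle (-0.16), Insig1 (-0.19) and Apoe (0.23) were not called. Macrophage markers summed to 1995 to 2053 CPM with PBS and 2571 to 2861 with cisplatin, which was not tested as a part of the result.

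One library of that group, TDLN CIS 2, stood apart in several members, with Scap at 394 CPM against 269 and 285, Apoe at 807 against 484 and 540.1, and Fdps at 85.02 against 54.6 and 59.1. Without it 4 members were called: Srebf2 (-0.35, edgeR adjusted p = 0.00238), Scap (-0.27, edgeR adjusted p = 0.0375) and Fdps (edgeR adjusted p = 0.0405) lower, and Abca1 higher (0.43, edgeR adjusted p = 0.0152). Without TDLN CIS 1, Nr1h3 was called (1.16, edgeR adjusted p = 0.0275). The cisplatin change differed between the nodes for 1 member, Mvd, with 2.62% of genes called in that direction and 2.7% in the other. It was at 17.4, 17.2 and 17 CPM with PBS and 13.1, 14.2 and 11.4 with cisplatin in the LN, and 16.5, 22.3 and 21.6 and then 25.8, 33.02 and 22.3 in the TDLN (0.86, SE 0.24, edgeR adjusted p = 0.0468). By the same test 4 members had an unadjusted p under 0.05. Sqle, Insig1, Abca1 and Apoe were not called with all libraries. Leaving out any LN library, or TDLN PBS 1 or 3, left 0 called, while leaving out TDLN CIS 1, 2 or 3 left 3, 5 or 2. The 5 without TDLN CIS 2 were Apoe (-0.54, edgeR adjusted p = 0.000341), Sqle (0.83, edgeR adjusted p = 0.0226), Cyp51 (0.63), Mvd (0.74) and Scap (-0.32).

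With PBS, rDC of the tumor-draining node carried more of the synthesis genes than those of the lymph node: 8 members were higher and 1 lower, where 14.9% of genes were higher and 12.1% lower. The 8 were 5 enzymes with Scap, Insig1 and Srebf1. Scap was at 203, 172 and 202 CPM in the LN and 338, 351 and 324 in the TDLN (0.81, SE 0.11, edgeR adjusted p = 7.58e-05). Lss was at 26.4, 24 and 24.9 in the LN and 43.6, 47.7 and 39.7 in the TDLN (0.79). Insig1 was at 38.3, 36.2 and 31.2 in the LN and 51.6, 48.8 and 54.4 in the TDLN (0.55, SE 0.12, edgeR adjusted p = 0.00354). All 3 were separated by node, and Fdft1 (0.68), Fdps (0.66), Dhcr7 (0.60), Hmgcs1 and Srebf1 (0.44) completed the 8.

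Abca1 went the other way, at 134, 146 and 126 CPM in the LN and 75.3, 78.7 and 72.8 in the TDLN (-0.84, SE 0.09, edgeR adjusted p = 6.04e-06). Sqle (0.45, edgeR adjusted p = 0.0959) and Apoe (-0.16) were not called. Of the fatty acid synthesis genes tested 6 of 9 were higher, among them Fads2 (1.14) and Elovl6 (1.02), and 1 lower, Scd1 (-0.85). The LN libraries are the deep ones. Without the filter the median of all genes moved to 0.195, and 3 members were higher (Scap, Lss and Fdps) and 6 lower, among them Abca1 (-1.10). Summed macrophage markers were at 2924 to 3068 CPM in the LN and 1995 to 2053 in the TDLN, B cell markers at 2358 to 2733 and 1369 to 1460, and T cell markers at 281 to 323 and 726 to 768. What part these markers have in the result was not tested.

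In the macrophages the efflux mean and several members followed the crossed libraries, so per-library values matter more than group means. The efflux mean in LN PBS was 7.252, 7.903 and 7.214 in MSM and 7.909, 7.222 and 7.897 in SSM. The enzyme mean was not split there, at 4.532, 4.439 and 4.513 in MSM and 4.482, 4.422 and 4.438 in SSM. With cisplatin in the TDLN it followed the crossed libraries, at 4.601, 4.708 and 4.753 in MSM and 4.619, 4.554 and 4.778 in SSM. Nr1h3 (LXR alpha) was at 52.4, 429 and 52.2 CPM in MSM LN PBS and 422, 59.4 and 406 in SSM LN PBS. In the TDLN with cisplatin it was at 442.5, 70.9 and 80.8 in MSM and 421.5, 406 and 78.3 in SSM. The high MSM values and the low SSM values are those of the crossed libraries. Siglec1, a surface receptor of sinus macrophages, was split in the same way, at 19.6, 351 and 15.5 CPM in MSM LN PBS and 357, 19.3 and 360 in SSM LN PBS. Marco, a medullary marker, was at 0.606, 1374 and 1.02 CPM in MSM LN PBS and 1369, 4.58 and 1305 in SSM LN PBS. Apart from the crossed libraries, Marco was thus high under the SSM label and low under the MSM label. Adgre1, from the same list of macrophage markers, was split the other way. It was at 537.9, 194.5 and 538.3 CPM in MSM LN PBS and 193.6, 521.7 and 205.5 in SSM LN PBS. The names MSM and SSM are used as the labels give them. Marco does not bear them out, but the markers differed in direction, so Marco alone does not settle the names. Only the LN CIS and TDLN PBS groups hold no crossed library in either macrophage type, so MSM and SSM are compared there.

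**Figure D5:**
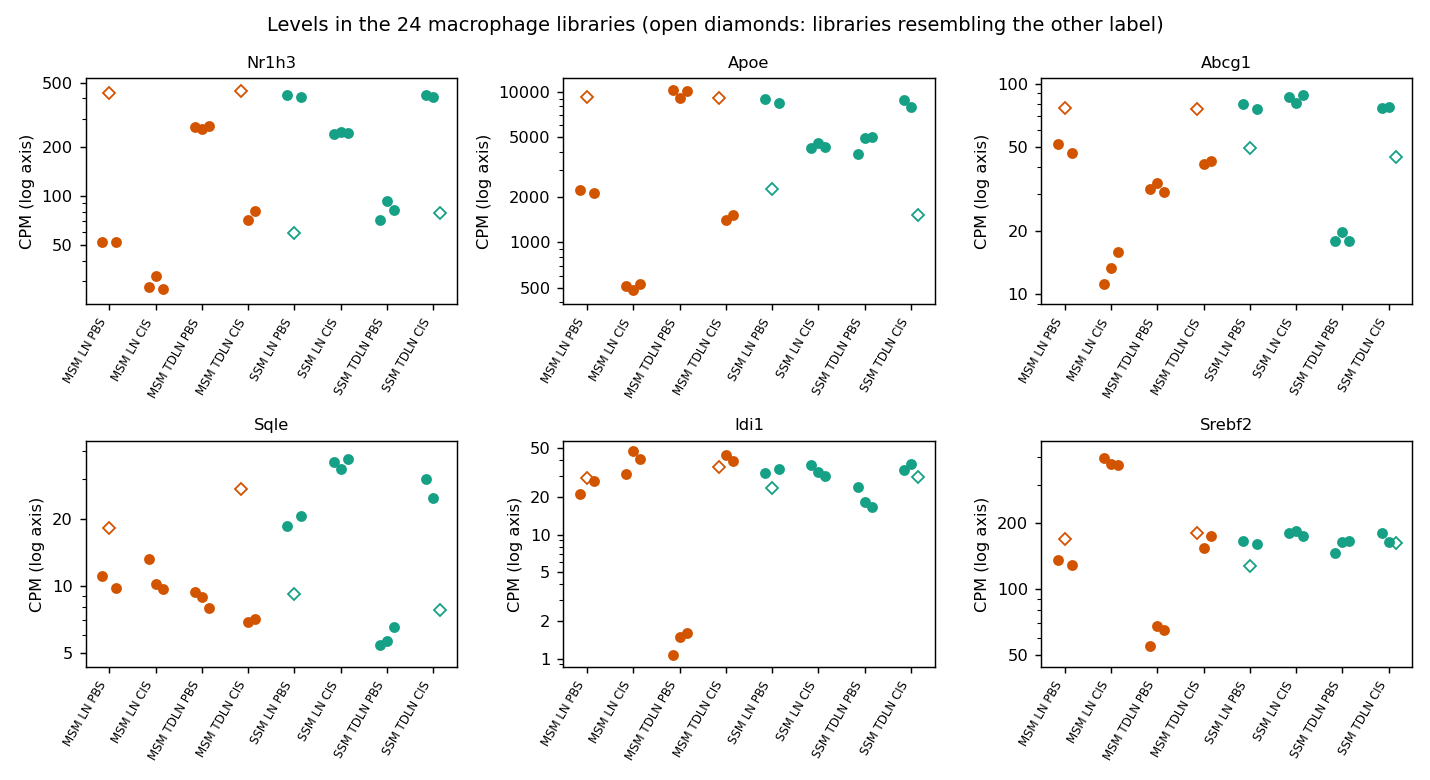
CPM (log axis) of 6 members in the 24 macrophage libraries by group, MSM in orange and SSM in green, with open diamonds for the 4 crossed libraries. Nr1h3, Apoe and Sqle of the crossed libraries lie with the other label, and Idi1 is at 1.07 to 1.61 in MSM TDLN PBS alone.

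In LN CIS, most of the members called were lower in MSM than in SSM: 4 members were higher and 17 lower, where 20.7% of all 19671 genes tested were higher and 29% lower. Apoe was at 514, 482.5 and 525 CPM in MSM and 4218, 4558 and 4318 in SSM (-3.10). Nr1h3 differed by -3.10, Abcg1 by -2.66 and Hmgcs1 by -2.44. Insig1 (-1.27) and Sqle (-1.68) were lower as well, while Srebf2 (1.08), Acat2 (1.50) and Lss (1.13) were higher. Abca1 was not called (0.16). The MSM LN CIS libraries also lacked macrophage markers: Siglec1 was at 0.287, 0 and 0 CPM, Mertk at 0.143, 0 and 0, and Adgre1 at 3.43 to 3.93, while Ccr7 was at 3386 to 3570. Their summed macrophage markers were at 1723 to 1803 CPM, B cell markers at 3600 to 3671 and migratory dendritic cell markers at 4139 to 4351. Marco was at 0.612 to 1.86 CPM in MSM LN CIS and 600 to 615 in SSM LN CIS. The MSM LN CIS libraries therefore do not show the labelled cell type by its markers, and the part of other cells in the result was not tested.

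In TDLN PBS, 8 members were higher and 8 lower in MSM, where 14.4% of genes were higher and 26.4% lower. Idi1 was at 1.07, 1.49 and 1.61 CPM in MSM and 24.4, 18.5 and 16.8 in SSM (-3.83). Stard4 had 1 count over the 3 MSM libraries and 349 over the 3 SSM libraries, a ratio of 323 (95% counting interval 57.7 to 12800). Srebf2 was lower by 1.34. Tm7sf2, a sterol reductase, was higher, at 10.5, 10.9 and 8.19 CPM in MSM and 0.126, 0.308 and 0.124 in SSM (5.59, on 5 SSM counts in all), as were Mvk (2.26), Lss (1.19) and Abca1 (0.67). Insig1 was lower (-0.79), and Sqle (0.58) was not called. Apoe (1.09) was not called either, although its groups did not overlap. It was at 10210, 9063 and 10040 CPM in MSM and 3846, 4888 and 5008 in SSM. Neutrophil markers summed to 7587 to 7810 CPM in MSM TDLN PBS. Marco, the medullary marker, was at 0.496 to 1.21 CPM in MSM TDLN PBS and higher, at 18.1 to 20.5, in SSM TDLN PBS. Siglec1 was at 128 to 150.1 in MSM TDLN PBS and at 8.04 to 14.2 in SSM TDLN PBS. Their part in the result was not tested.

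With the crossed libraries left out of the fit the spread was smaller and more genes passed: 9 members were higher and 18 lower in LN CIS (33.1% and 39.3% of genes) and 16 and 10 in TDLN PBS (28.1% and 39%). Fitting only the 6 libraries compared also gave 26 members in TDLN PBS.

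With cisplatin in the lymph node, MSM had 4 members higher and 14 lower, where 16.6% of all 17002 genes tested were higher and 26.8% lower, and without the crossed library 6 higher and 18 lower (33.4% and 40.7%). Apoe was at 2216, 9225 and 2108 CPM with PBS and 514, 482.5 and 525 with cisplatin (-3.15, and -2.09 without the crossed library). Abcg1 was at 51.5, 76.4 and 46.8 with PBS and 11.2, 13.3 and 15.9 with cisplatin (-2.11, and -1.86). Hmgcs1 was at 25.8, 44.2 and 32 with PBS and 8.74, 12.9 and 9.18 with cisplatin (-1.73, and -1.48). Every cisplatin library lay under every PBS library in all 3. Abca1 was lower too (-0.99, and -0.76). Insig1 (-0.63, and -0.51) and Nr1h3 (-2.63, and -0.86) were called with these libraries, but Insig1 lost the call when any of 5 single libraries was left out and Nr1h3 when any of 4 was. Without the crossed LN PBS 2 alone Nr1h3 was at -0.87 (edgeR adjusted p = 0.295) and Insig1 at -0.51 (edgeR adjusted p = 0.0519), and with the replicate block Nr1h3 had an edgeR adjusted p of 0.0869.

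Srebf2 rose in those libraries, from 136, 169 and 129 CPM to 394.5, 374 and 370.1 (1.39, and 1.52 without the crossed library), as did Cyp51, from 31.9, 40.8 and 33.5 to 78.5, 93.8 and 91.7 (1.31, and 1.43), and Acat2 (1.26, and 1.02). Sqle was not called (-0.24, and 0.07). Summed macrophage markers were at 13000 to 13680 CPM with PBS and 1723 to 1803 with cisplatin, and B cell markers at 202, 204 and, in the crossed library, 2858 with PBS against 3600 to 3671 with cisplatin. Neutrophil markers were at 4456, 4301 and, in the crossed library, 157.5 with PBS against 13.6 to 16.4 with cisplatin. Migratory dendritic cell markers were at 298, 291 and, in the crossed library, 1412 against 4139 to 4351. Mast cell markers were at 130, 131 and, in the crossed library, 604 against 860 to 902. The result follows libraries whose macrophage markers also fell, and the part of other cells was not tested.

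In the tumor-draining node MSM had 8 members higher and 8 lower with cisplatin, where 25.6% of genes were higher and 11.5% lower, and without the crossed library 11 and 12 (41.6% and 27.4%). Idi1 was at 1.07, 1.49 and 1.61 CPM with PBS and 35, 43.7 and 39.5 with cisplatin (4.83, SE 0.25, edgeR adjusted p = 2e-06, and 4.92 without the crossed library). Srebf2 was at 54.9, 67.7 and 65.2 with PBS and 180, 155 and 174 with cisplatin (1.45, and 1.42). Stard4 had 1 count with PBS and 410 with cisplatin, a ratio of 369 (95% counting interval 65.9 to 14600). The sensing genes Insig1 (0.57, and 0.63) and Srebf1 (0.76, and 0.74) were higher, as were Hmgcs1 (0.87, and 0.97), Abcg1 (0.76, and 0.42) and Nr1h2 (0.92, and 0.82). Of the enzymes 7 were lower, among them Mvk (-1.51, and -1.41), Tm7sf2 (-1.33, and -1.11) and Cyp51 (-0.68, and -0.54), and Abca1 was lower (-0.54, and -0.55). Sqle (0.67, and -0.30), Apoe (-1.27) and Nr1h3 (-0.41) were not called, although without the crossed library Apoe (-2.72) and Nr1h3 (-1.79) were. Leaving out TDLN CIS 2 or TDLN PBS 1 left 10 called. Insig1 lost the call with RLE size factors (edgeR adjusted p = 0.0595), with the replicate block (edgeR adjusted p = 0.0648) and without the low-count filter (edgeR adjusted p = 0.113). It also lost the call without TDLN CIS 2, TDLN CIS 3 or any TDLN PBS library. Abca1 lost the call without the filter, TDLN CIS 2 or TDLN CIS 3. Tm7sf2 lost it without the filter, TDLN CIS 2, TDLN PBS 1 or TDLN PBS 2. Summed macrophage markers were at 22530 to 22930 CPM with PBS and 7956 to 12390 with cisplatin, mast cell markers at 50.2 to 59.9 and 1021 to 1838, migratory dendritic cell markers at 143 to 160 and 1564 to 1735, and B cell markers at 25.6 to 30.2 and 294, 298 and, in the crossed library, 3672. What part these markers have in the result was not tested.

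The same TDLN PBS libraries set the comparison of the nodes in MSM with PBS: 10 members were higher and 6 lower in the TDLN, where 11.6% of genes were higher and 26.6% lower, and without the crossed library 15 and 10 (29% and 40.7%). Enzymes were higher in 9 of 18 and lower in 1. Cyp51 (1.57, and 1.69), Tm7sf2 (1.52, and 1.34) and Hsd17b7 (1.40, and 1.56) were higher, and Idi1 (-4.22, and -4.15) and Srebf2 (-1.22, and -1.09) lower. Stard4 had 373 counts in the LN and 1 in the TDLN, a ratio of 351 (95% counting interval 62.5 to 13900). Apoe (1.10, and 2.16 and called without the crossed library), Abca1 (0.05, and 0.28 and called), Sqle (-0.59, and -0.27) and Insig1 (-0.20, and -0.09) were not called. Leaving out TDLN PBS 1 left 10 called. Summed macrophage markers were at 13000 to 13680 CPM in the LN and 22530 to 22930 in the TDLN, neutrophil markers at 4456, 4301 and, in the crossed library, 157.5 in the LN against 7587 to 7810, and B cell markers at 202, 204 and, in the crossed library, 2858 against 25.6 to 30.2. Their part in the result was not tested.

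The cisplatin change differed between the nodes for 15 MSM members, 12 with a more positive change in the TDLN and 3 with a more negative one, where 31.1% and 9.64% of genes were so called and the median of all genes was 0.58. The interaction was 4.21 (and 4.21) for Idi1, 2.87 (and 2.28) for Abcg1, 2.60 (and 2.46) for Hmgcs1 and 1.20 (and 1.14) for Insig1. It was -1.995 (and -1.97) for Cyp51, -1.63 (and -1.27) for Mvk and -1.03 (and -0.78) for Acat2. Sqle (0.91, and -0.37) and Abca1 (0.44, and 0.21) were not called. Apoe was at 1.88 and not called with all libraries and at -0.63 and called without the crossed ones, when 15 members had a more positive and 8 a more negative change (43% and 22.1% of genes).

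In SSM of the lymph node the direction of cisplatin was the reverse of that in mDC for several enzymes, although the difference between the cell types was not tested. Of the 31 members 9 were higher and 3 lower, where 5.85% of all 16886 genes tested were higher and 7.42% lower, and without the crossed library 18 and 6 (30.1% and 29.9%). Fdps was at 34.3, 22.5 and 39.5 CPM with PBS and 71.9, 78 and 75.04 with cisplatin (1.21, and 1.05 without the crossed library). Insig2 was at 15.3, 23.5 and 20.8 with PBS and 40.5, 40.4 and 45.6 with cisplatin (1.07, and 1.25). Pmvk was at 15.6, 15.9 and 12.4 with PBS and 31.6, 29.9 and 29.7 with cisplatin (1.04, and 1.14). All 3 were separated by treatment. Ebp (0.80, and 0.98), Cyp51 (0.77, and 0.75), Fdft1 (0.72, and 0.53), Msmo1 (0.68, and 0.88), Nsdhl (0.65, and 0.52) and Insig1 (0.62, and 0.53) were higher too. Insig1 lost the call with the replicate block (edgeR adjusted p = 0.0574), with the 6 compared libraries alone (edgeR adjusted p = 0.0762) and without the low-count filter (edgeR adjusted p = 0.0815). It also lost the call without LN CIS 1, LN CIS 2 or LN PBS 3.

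Abca1 was lower in SSM with cisplatin, at 126, 77.5 and 129 CPM with PBS and 39.6, 43.1 and 41.9 with cisplatin (-1.43, and -1.60 without the crossed library), as was Mylip (-0.81, and -0.98). Mylip was not called with the replicate block (edgeR adjusted p = 0.0722) or without the low-count filter (edgeR adjusted p = 0.0751). Lss was called at -0.90 with all libraries and -0.53 without both crossed ones, but leaving out any 1 of the 6 libraries compared ended the call, and without the crossed LN PBS 2 alone it was at -0.52 (edgeR adjusted p = 0.0624). It was not called with the replicate block (edgeR adjusted p = 0.072), with the 6 compared libraries alone (edgeR adjusted p = 0.0748) or without the low-count filter (edgeR adjusted p = 0.0974). Apoe (-0.59, and -0.97 and called without the crossed library) and Sqle (1.12, and 0.87 and called) were not called with all libraries. The number called depended on single libraries: 5 without LN CIS 1, LN CIS 2 or LN PBS 3, 6 without LN CIS 3 and 7 without LN PBS 1. Summed macrophage markers were at 12910 to 13290 CPM with PBS and 22690 to 23220 with cisplatin, and B cell markers at 2660, 2731 and, in the crossed library, 207 with PBS against 170 to 177 with cisplatin. Mast cell markers were at 588, 631 and, in the crossed library, 121 against 40.1 to 45.1. Migratory dendritic cell markers were at 1416, 1348 and, in the crossed library, 300 against 727 to 759. T cell markers were at 557, 512 and, in the crossed library, 1151 against 862.5 to 891. What part these markers have in the result was not tested.

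In SSM of the tumor-draining node 6 members were higher and 1 lower with cisplatin, where 13% of genes were higher and 9.95% lower, and without the crossed library 12 and 8 (34.6% and 36.5%). Abcg1 was at 18, 19.8 and 17.8 CPM with PBS and 76.2, 77.7 and, in the crossed library, 44.7 with cisplatin (1.83, and 2.05 without it). Sqle was at 5.4, 5.65 and 6.56 with PBS and 30.2, 24.8 and, in the crossed library, 7.76 with cisplatin (1.82, and 2.23). Tm7sf2 had 5 counts over the 3 PBS libraries and stood at 2.58, 3.11 and 6.67 CPM with cisplatin (4.34, and 3.795). Idi1 (0.73, and 0.83), Mylip (0.67, and 0.87) and Insig2 (0.63, and 0.66) were higher and Dhcr7 lower (-0.69, and -0.96). Insig1 (-0.25, and -0.26), Abca1 (0.11, and 0.14) and Apoe (0.40, and 0.87 and called without the crossed library) were not called, nor was Nr1h3 (1.86), which was called without the crossed library (2.33). The number called was 2 without TDLN CIS 1, TDLN PBS 2 or TDLN PBS 3, 3 without TDLN PBS 1, 4 without TDLN CIS 2 and 12 without the crossed TDLN CIS 3. Mast cell markers summed to 45.8 to 64.2 CPM with PBS and 1088 to 1755 with cisplatin, migratory dendritic cell markers to 334 to 390 and 1413 to 1715, and B cell markers to 748 to 761 and 3486, 3570 and, in the crossed library, 314. T cell markers summed to 1427 to 1491 with PBS and 437, 441 and, in the crossed library, 1301 with cisplatin. Summed macrophage markers were at 12160 to 12590 and 11760, 11900 and, in the crossed library, 8008. Within that list Marco was at 18.1, 20.4 and 20.5 with PBS and 1002, 924 and, in the crossed library, 3.94 with cisplatin. Siglec1 was at 8.04, 12.9 and 14.2 and then 179, 171.5 and, in the crossed library, 22.4. Their part in the result was not tested.

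With PBS, SSM of the TDLN had 6 members higher and 7 lower than those of the LN, where 7.63% of genes were higher and 12% lower, and without the crossed library 10 and 11 (34% and 33.8%). Sc5d (1.299, and 1.42), Acat2 (1.07, and 1.45), Dhcr7 (0.62, and 0.64) and Insig1 (0.60, and 0.49) were higher. Tm7sf2 (-4.38, and -3.92), Abcg1 (-1.88, and -2.04), Sqle (-1.46, and -1.71), Lss (-1.17, and -0.79) and Abca1 (-0.87, and -1.05) were lower, and Apoe was not called with all libraries (-0.51, and -0.90 and called). Leaving out LN PBS 1 left 8 called, LN PBS 3 left 7, and each TDLN PBS library left 6. B cell markers summed to 2660, 2731 and, in the crossed library, 207 CPM in the LN and 748 to 761 in the TDLN, and mast cell markers to 588, 631 and, in the crossed library, 121 against 45.8 to 64.2, which was not tested as a part of the result. Siglec1 was at most 14.2 CPM in SSM TDLN PBS and at 357 and 360 in the SSM LN PBS libraries that are not crossed, so the labelled cell type was not evident from that marker in the TDLN.

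The cisplatin change differed between the nodes for 14 SSM members, 5 with a more positive change in the TDLN and 9 with a more negative one, where 13.4% and 8.21% of genes were so called, and for 11 and 16 without the crossed libraries (33.6% and 32.2%). Efflux genes made up 3 of the 5, among them Abca1 (1.54, and 1.74) and Abcg1 (1.52, and 1.90), and enzymes 8 of the 9, among them Fdps (-1.19, and -0.96), Ebp (-1.26, and -1.71) and Pmvk (-1.23, and -1.44). Insig1 was the other of the 9 (-0.87, and -0.79). Sqle (0.70, and 1.35) and Apoe (0.99, and 1.84) were not called with all libraries and were called without the crossed ones. Leaving out LN CIS 1 left 9 called.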

How the data were processed

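The submitters' processing notes name STAR for alignment, RSEM 1.3.0 for quantification and the build GRCm38. The labels' protocols give a TruSeq Stranded mRNA kit. The expected counts of RSEM, deposited by the authors per gene, were rounded and are the values tested here. The authors also deposited TPM, used for levels per length. For the macrophages the TPM that the authors deposited lack decimals, so they count here as a score. Dendritic cell columns named for tumor were read as TDLN and those named WT as LN, the latter by elimination.

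Genes were kept by filterByExpr, scaled with TMM and fitted with edgeR 4.0.16 quasi-likelihood models in R 4.3.3, 1 model of 12 libraries per cell type and 1 of 24 libraries per table for comparisons of cell types. The p-values were Benjamini-Hochberg adjusted over all genes tested, with a limit of 0.05. Within a dendritic cell type CPM are scaled over its 12 libraries, otherwise over the 24 of its table. A standard error is the log2 change divided by the square root of F. The scripts were tested on simulated data. Alternatives were DESeq2 1.42.0, RLE size factors, no low-count filter, a replicate block, only the 6 compared libraries, leaving out each library, leaving out the crossed libraries, and thinning libraries of over 5 M counts to 3 M. Ratios on few counts have exact intervals that cover counting error only. No 2 libraries of a group agreed within sampling noise.

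In each comparison Sqle, Insig1, Abca1 and Apoe are named, with up to 3 members per direction of largest change among those called at a mean of at least 4 CPM, and the others by role. The members and lists were chosen with earlier results of these data known. Reads and the submitters' own comparisons were not used here.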

Additional observations from a re-analysis of the deposited data

Results flagged for a closer look

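An interaction term tested whether a member's cisplatin change differed between the tumor-draining node and the lymph node (edgeR quasi-likelihood fit, Benjamini-Hochberg over all genes). It called 13 members in mDC, 1 in rDC, 15 in MSM and 14 in SSM. Of all genes, 8.43% had a more positive and 7.17% a more negative change in mDC, and 2.62% and 2.7% in rDC. The shares were 31.1% and 9.64% in MSM and 13.4% and 8.21% in SSM. The 21 values below are those of the genes named by the rule given above. Each value is the log2 change in the TDLN minus that in the LN. In mDC it was 1.06 for Fdps (adjusted p = 2.61e-06), 0.68 for Insig1 (0.000683), 1.096 for Stard4 (0.00909), 0.94 for Mvk (0.0067) and 0.48 for Sqle (0.02), and -0.37 for Abcg1 (0.00256). Without the low-count filter Insig1, Mvk and Sqle were not among the positive calls in mDC. In rDC the value was 0.86 for Mvd (edgeR adjusted p = 0.0468), and that call was lost when any LN library was left out.

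In MSM it was 4.21 for Idi1 (adjusted p = 9.32e-06), 2.87 for Abcg1 (0.000217) and 1.20 for Insig1 (0.00611), and -1.995 for Cyp51 (9.36e-05), -1.63 for Mvk (0.00345) and -1.03 for Acat2 (0.0205). For Stard4 it was 7.83 (9.72e-05), a size that depends on the prior count since MSM TDLN PBS held 1 count. In SSM it was 1.54 for Abca1 (adjusted p = 0.00244), 1.52 for Abcg1 (0.00774) and 1.61 for Lss (0.0124), and -0.87 for Insig1 (0.0198), -1.26 for Ebp (0.0133), -1.23 for Pmvk (0.0126) and -1.19 for Fdps (0.00995). Without the crossed libraries the MSM values were 4.21 for Idi1, 2.28 for Abcg1, 1.14 for Insig1, 8.38 for Stard4, -1.97 for Cyp51, -1.27 for Mvk and -0.78 for Acat2. The SSM values were then 1.74 for Abca1, 1.90 for Abcg1, 1.25 for Lss, -0.79 for Insig1, -1.71 for Ebp, -1.44 for Pmvk and -0.96 for Fdps.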

How the results depend on the processing

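Counts of members called were within 1.5 times of the reported count except as follows. Without the low-count filter they were 10 for cisplatin in MSM TDLN, 6 in SSM LN, 4 in SSM TDLN, 14 in mDC TDLN and 1 in rDC TDLN, 7 and 21 for TDLN against LN in SSM and mDC, and 6 for the node difference in rDC. In that fit Fdps in mDC TDLN was at -0.003 and Insig1 for TDLN against LN in mDC at 0.34, both turned in sign. Without the crossed libraries the counts were 24 and 20 for cisplatin in SSM LN and TDLN, 25 and 21 for TDLN against LN in MSM and SSM, 23 and 27 for the node difference in MSM and SSM, and 26 for MSM against SSM in TDLN PBS, and Apoe turned to -0.63 in the MSM node difference. With only the 6 compared libraries they were 7 for cisplatin in SSM LN, 14 for TDLN against LN in rDC and 26 for MSM against SSM in TDLN PBS. DESeq2 gave 2 for the node difference in rDC, and thinning gave 5 for cisplatin in rDC LN. Apart from the alternatives' own construction (fewer samples, more genes), the cause was not tested.

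Leaving out each library gave 12 to 16 called for cisplatin in MSM LN, 10 to 16 in MSM TDLN, 5 to 13 in SSM LN, 2 to 12 in SSM TDLN, 12 to 15 in mDC LN, 6 to 8 in mDC TDLN, 5 to 6 in rDC LN and 0 to 4 in rDC TDLN. For TDLN against LN it gave 10 to 16 in MSM, 6 to 18 in SSM, 5 to 10 in mDC and 8 to 10 in rDC, and for the node difference 13 to 18 in MSM, 9 to 20 in SSM, 11 to 12 in mDC and 0 to 5 in rDC. It gave 19 to 20 for MSM against SSM in LN CIS, 13 to 15 in TDLN PBS and 30 to 31 for mDC against rDC. Over the named genes these fits gave the same side of the limit in 1170 values, a lost call in 102 and a new call in 6. A sign that turned with a call in either fit was found in 0. A sign that turned without a call in either fit is counted among the 1170.

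Replicate numbers were not taken to pair the samples, since in each cell type some same-numbered libraries correlated below 0.1. In 1 of the 24 pairs of groups, SSM LN CIS with SSM TDLN PBS, all 3 were above it (0.403, 0.196 and 0.123), but no comparison sets those groups against each other. The replicate block gave 5 for cisplatin in SSM LN and 0 for the node difference in rDC and stayed within 1.5 times of the reported count elsewhere. Calls at low CPM are limited by the 18 dendritic cell libraries of 2.0 to 3.84 M counts.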
